A study of Mus musculus with 4 samples.

Results

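The genes described here are the small nucleolar RNAs (snoRNAs) and Cajal body RNAs of tumour endothelial cells. They were taken by name: every row of the deposited count table whose name starts with Snord (box C/D snoRNAs), Snora (box H/ACA snoRNAs), Scarna (small Cajal body RNAs, scaRNAs) or Rnu3 (the U3 snoRNA). This gave 152 of 55367 gene names: 98 box C/D, 40 box H/ACA, 9 scaRNA and 5 U3 genes. The choice used names only, and predicted snoRNA genes with other names were not members. The cells were sorted as CD31 positive and CD45 negative from subcutaneous tumours of KPC cells, a mouse pancreatic cancer line, grown in C57BL/6 mice. The mice received control Rat IgG or anti-CD93 antibody, directed against a receptor on endothelial cells, 48 hours before the cells were isolated. Each group had 2 libraries of total RNA, here called control IgG 1 and 2 and anti-CD93 1 and 2. The labels give no age and do not tie a library to a mouse, and a p-value here weighs only library-to-library spread, which may be technical.

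snoRNAs are short RNAs of the nucleolus, and most of them in mammals are cut out of the introns of other genes. Box C/D snoRNAs pair with ribosomal RNA and guide ribose methylation by the enzyme fibrillarin, while box H/ACA snoRNAs guide the conversion of uridine to pseudouridine by dyskerin. scaRNAs do the same for the small nuclear RNAs of the spliceosome, in Cajal bodies. U3 is a box C/D RNA that modifies no base but is needed for the first cuts in the precursor of ribosomal RNA that free the small subunit.

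The sequences of the members on which the results turn are shown first, as RNA-sense DNA letters from GENCODE vM21 transcripts of GRCm38. Box C/D members are described by length below. The coordinates of all 152 members in that release equalled those in the deposited table. Capitals mark TGATGA, the usual letters of box C, where it lies in the first 20 bases, CTGA (box D) in the last 20 bases, and ACA exactly 3 bases before the end. The first pair holds U3 and the box C/D member with the most reads.
Rnu3a, chr10:40258467-40258680, plus strand: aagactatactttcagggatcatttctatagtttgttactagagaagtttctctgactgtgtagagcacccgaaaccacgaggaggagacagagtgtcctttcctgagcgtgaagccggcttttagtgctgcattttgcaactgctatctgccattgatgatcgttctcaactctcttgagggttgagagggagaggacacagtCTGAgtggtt
Snord15a, chr7:99482785-99482932, minus strand: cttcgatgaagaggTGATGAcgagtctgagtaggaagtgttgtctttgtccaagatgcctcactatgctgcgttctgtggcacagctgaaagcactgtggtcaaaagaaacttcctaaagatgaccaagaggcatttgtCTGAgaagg
The next 3 are short box C/D RNAs from introns of 1 host gene, Rpl13a, which encodes a ribosomal protein.
Snord32a, chr7:45127382-45127464, minus strand: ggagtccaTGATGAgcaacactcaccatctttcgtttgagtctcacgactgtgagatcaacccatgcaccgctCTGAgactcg
Snord34, chr7:45126601-45126670, minus strand: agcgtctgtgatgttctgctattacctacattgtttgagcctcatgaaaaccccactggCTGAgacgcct
Snord35a, chr7:45126346-45126435, minus strand: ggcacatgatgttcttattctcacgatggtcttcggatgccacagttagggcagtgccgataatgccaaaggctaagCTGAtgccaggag
The last pair holds a box H/ACA RNA and a scaRNA that were highest in control IgG 2.
Snora21, chr11:97781639-97781775, minus strand: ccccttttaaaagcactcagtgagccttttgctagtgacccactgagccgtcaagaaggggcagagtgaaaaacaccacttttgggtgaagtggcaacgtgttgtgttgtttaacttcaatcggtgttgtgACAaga
Scarna13, chr12:105031075-105031349, minus strand: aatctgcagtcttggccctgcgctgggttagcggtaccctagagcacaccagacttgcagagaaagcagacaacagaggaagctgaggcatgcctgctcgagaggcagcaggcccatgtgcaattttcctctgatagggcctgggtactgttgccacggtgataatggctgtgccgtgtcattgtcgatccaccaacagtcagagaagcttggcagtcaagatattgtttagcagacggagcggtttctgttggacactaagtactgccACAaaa

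Searched on the transcript strand only, TGATGA and CTGA stood together in these windows in 67 of 98 box C/D members (68.4%), and ACA stood 3 bases from the end in 34 of 40 box H/ACA members (85%). Among 4216 other short RNA transcripts of the release, of 64 to 414 bases, 0.0237% held the pair and 2.16% the ACA. Box C/D members ran from 64 to 238 bases (median 84.5) and box H/ACA members from 121 to 205 (median 132.5). The scaRNAs ran from 70 to 414 bases and the U3 genes from 214 to 216. Per the labels the reads were 150 bases long, which is more than most box C/D members.

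Which members had any reads followed their place in the annotation. Of the 152 members, 72 had reads in at least 1 library and 80 had none. All 58 members whose whole length is covered by annotated exons of another gene name had 0 reads. They include Snord47, Snord78 and Snord80 in exons annotated for Gas5, Snord50a and Snord50b in Snhg5, and Snora73a in Snhg3. The recorded counting command assigned no read that overlapped exons of 2 gene names, so a 0 there is no measure of the RNA. Of 14 members covered in part, 4 had no reads. Of the 80 that no exon of another gene touched, 18 had none: all 17 copies of Snord116, and Snora35.

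Snord116 is an imprinted box C/D cluster best known from neurons. Its copies lie in introns of Snhg14 and hold only 4 distinct sequences, with 14 of the 17 copies identical to another. Reads that map to several places were not counted. Snora35 lies in an intron of the serotonin receptor gene Htr2c, and its 0 allows up to 3 reads, or 0.169 to 0.321 CPM, per library, for counting error only. CPM are reads per 1e6 reads of the tested genes after scaling (TMM).

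The libraries held 9364294 to 17813993 assigned reads, of which all members together took 0.0423% to 0.0775%. Control IgG 2 stood apart from the others. It had reads at 27718 gene names against 23796 to 25430, and 6.20% of its assigned reads came from the mitochondrial rRNA genes, against 11% to 11.8%. Olfactory and vomeronasal receptor genes, which mark reads outside the expressed genes, summed to 360.4 CPM there against 52.4 to 56.6. The 8 endothelial markers had reads in all 4 libraries, summing to 7154 to 8806 CPM, and 6 leukocyte markers to 14.4 to 28.0 CPM. Tumour epithelial (5 genes) and fibroblast markers (6 genes) summed to 1518 to 2250 and 1761 to 2835 CPM, so the sorted RNA also held transcripts of other cells. Fewer cells of a type and less RNA per cell cannot be told apart in these bulk samples.

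With 2 libraries a group, no member passed the test between antibody and control. Of 16945 genes with enough reads, 45 were members: 29 box C/D, 10 box H/ACA, 4 scaRNA and 2 U3 genes. By edgeR's quasi-likelihood test with Benjamini-Hochberg adjustment 0 of the 45 had an adjusted p under 0.05, as did 0 of all genes (0%), and the smallest adjusted p was 0.812 in both. At an unadjusted p under 0.05, 6 members lay lower and 0 higher with anti-CD93, against 4.49% of all tested genes, 2.5% lower and 1.99% higher. The 6 were Rnu3a, Rnu3b4, Snord15a, Snord17, Snora78 and Scarna13. DESeq2 called 2 members, Snord15a and Rnu3a, both lower, among 5 genes in all (0.015%, and 0.00898% lower). Without control IgG 2 edgeR called Snord15a and Rnu3a among 13 genes (0.0767%, and 0.0177% lower). Without control IgG 1 it called 10 members, 7 lower and 3 higher, but also 26.8% of all genes (12.8% lower), so calls of that fit given below have a high background. Without anti-CD93 1 it called 0% and without anti-CD93 2 0.0059% of all genes (0.0059% lower), and no member in either. With no count filter 3 members were called, Rnu3a, Snord15a and Scarna13, all lower, where 0.144% of all genes were (0.0658% lower). A model with the library number as a block called Rnu3a and Snord15a, both lower, and 0.0826% of all genes (0.0177% lower).

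In direction, 37 of the 45 tested members lay lower with anti-CD93 and 8 higher, with a median log2 fold change of -0.34, while all tested genes had 8620 lower and 8325 higher and a median of -0.0092. The median was -0.46 for box C/D (24 of 29 lower), -0.18 for box H/ACA (8 of 10), -0.15 for scaRNAs (3 of 4) and -1.17 for U3 (2 of 2). For box C/D limma-voom gave -0.26 over the same 29 members. DESeq2 also gave -0.26, but over all 42 box C/D members with reads. In 14 of the 45 both anti-CD93 libraries lay below both controls (31.1%), against 19.7% of all tested genes. In 1, Snord73a, they lay above, against 20.1%. Low-read members could pass the read filter through the group where they were high, so these counts are a description. With a filter blind to the groups, a mean of at least 10 reads, 44 members remained, 14 of them lower and 1 higher without overlap (19.6% and 20.3% of all genes kept so).

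**Figure D1:**
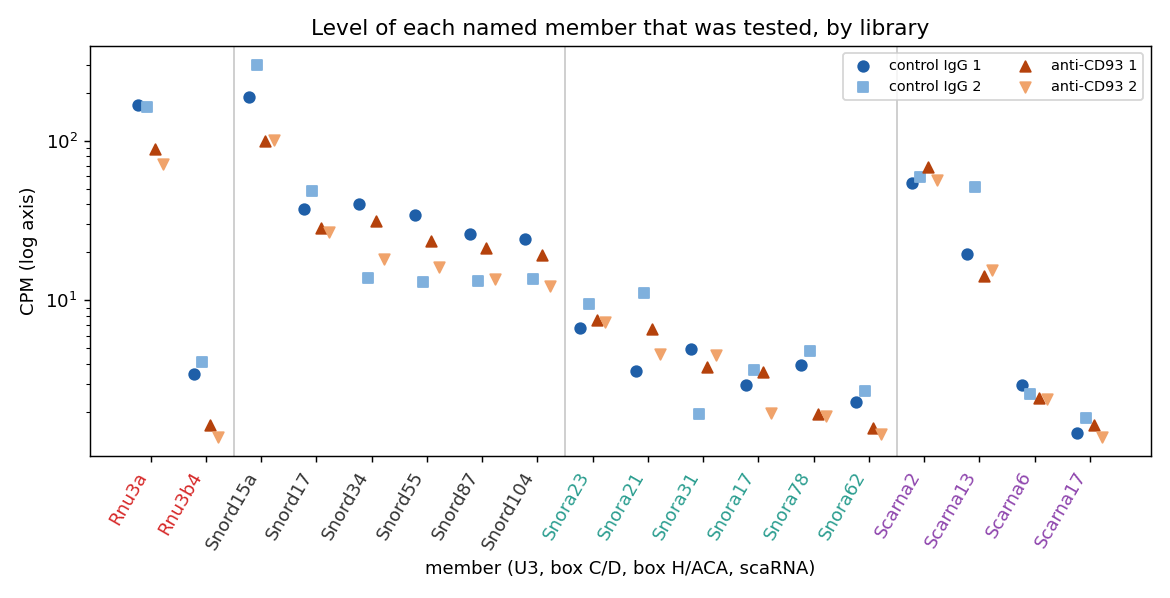
Level in CPM (log axis) of each named and tested member in each of the 4 libraries, 1 point per library, grouped as U3, box C/D, box H/ACA and scaRNA. Both anti-CD93 points of Rnu3a and Snord15a lie below both control points, whereas Snord34 to Snord104 are highest in control IgG 1.

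Both tested U3 genes lay lower in both anti-CD93 libraries than in both controls, and Rnu3a had the smallest p of all members (unadjusted p = 4.99e-04 by edgeR). Rnu3a (chromosome 10, 40258467 to 40258680, between genes) was at 167 CPM in control IgG 1, 163 in control IgG 2, and 88.5 and 71.3 in the anti-CD93 pair. The controls lay close together, and both anti-CD93 libraries were well below them. The log2 fold change was -1.05 (SE 0.19, control 165 ± 3.38 against 79.9 ± 12.2 CPM, mean ± SD, n = 2 each; edgeR adjusted p = 0.812). It was -1.07 without control IgG 2 (edgeR adjusted p = 0.0244) and -1.02 without control IgG 1 (edgeR adjusted p = 0.00104), and both leave its size close to that with all libraries. Without either anti-CD93 library it was -1.20 and -0.90, and edgeR called no member. Since earlier results of these data had already named Rnu3a, its call there is no separate support.

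The other 4 U3 genes, Rnu3b1 to Rnu3b4, lie in introns of Tex14 on chromosome 11 and have identical sequences of 216 bases. Reads that map to several places were not counted, so the counts here are no full measure of these copies. Rnu3b4 had 42, 38, 29 and 19 reads in control IgG 1 and 2 and anti-CD93 1 and 2. Its level was 3.43 and 4.07 CPM in the controls and 1.64 and 1.38 CPM with anti-CD93, again without overlap (log2 fold change -1.30, SE 0.46; edgeR adjusted p = 0.812). Rnu3b1, Rnu3b2 and Rnu3b3 had 0 to 15 reads per library and were not tested. Rnu3b2 ran the other way, at 0.245 and 0.642 against 0.565 and 1.09 CPM, so Rnu3b4 is no separate U3 result. The 4 copies together were at 4.00 and 6.21 CPM in the controls and 2.66 and 2.91 CPM with anti-CD93. The host Tex14 had 8, 12, 6 and 0 reads in the same order and was not tested either. The sum over all U3 genes was 170.1 ± 1.81 CPM in the controls and 82.7 ± 12.02 CPM after anti-CD93. Rnu3a made up 96.1% to 97.7% of it in each library.

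Box C/D members are given by length. The 3 tested ones of 120 bases or more were lower with anti-CD93, and this held without either control library. Snord15a (chromosome 7, 99482785 to 99482932), a guide for methylation of large-subunit ribosomal RNA, was at 187 and 301 CPM in control IgG 1 and 2. In the anti-CD93 libraries it was at 100.4 and 101 CPM, so these nearly coincided and lay below both controls (244 ± 80.7 against 101 ± 0.526 CPM). The log2 fold change was -1.28 (SE 0.24; edgeR adjusted p = 0.812), -0.90 without control IgG 2 and -1.58 without control IgG 1. As with Rnu3a, earlier results of these data had already named Snord15a, so its calls given above are no separate support. Snord15a lies in an intron of Rps3, a ribosomal protein gene that was at 330.4 ± 46.6 and 326.5 ± 16.5 CPM (log2 fold change -0.017, SE 0.18). Snord15b, the other member in Rps3, overlaps an annotated exon and had no reads.

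Snord17 (chromosome 2, 144265979 to 144266216), at 238 bases the longest box C/D member, was at 37.3 and 48.7 CPM in the controls and 28.5 and 26.7 CPM with anti-CD93. The groups did not overlap (log2 fold change -0.64, SE 0.21; edgeR adjusted p = 0.812), and the value was -0.44 without control IgG 2. Its host Snx5, a sorting nexin gene, was at 59.7 ± 10.2 against 64.6 ± 2.24 CPM (log2 fold change 0.11). Snord118, the U8 RNA needed for processing of the large subunit's RNA, was at 3.59 and 2.25 CPM in the controls and 2.37 and 1.45 CPM with anti-CD93, and its groups overlapped. Its log2 fold change was -0.61 (SE 0.51), -0.89 without control IgG 2 and -0.22 without control IgG 1. Control IgG 1 was its highest library, as in most short members.

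The summed level of the short box C/D members followed another order. The 25 under 120 bases with a mean of at least 10 reads had a summed level of 235 CPM in control IgG 1, of 174 in the first and 113 in the second anti-CD93 library, and of 98.3 in control IgG 2. The controls were thus the ends of the range. Control IgG replicate 1 was the highest library for 20 of the 25 (80%), against 19.8% of all genes with such reads, and control IgG 2 the lowest for 13 (52%), against 38.1%. Both anti-CD93 libraries lay below control IgG 1 in 22 of 25 (88%), against 35% of all genes. In 5 of the 25 (Snord13, Snord58b, Snord8, Snord37 and Snord92) both anti-CD93 libraries nevertheless lay below both controls (20%, against 19.6% of all genes). The split at 120 bases was chosen after the values were seen.

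The 3 members in Rpl13a introns show this order. Snord34 was at 40.4 and 13.7 CPM in control IgG 1 and 2 and at 31.4 and 18.2 CPM in the anti-CD93 pair. Snord32a was at 18.4, 4.07, 14.97 and 8.79 CPM, and Snord35a at 16.5, 3.10, 11.6 and 7.85 CPM, in the same order. In all 3 control IgG 1 was highest and control IgG 2 lowest, so the groups overlapped. Their log2 fold changes were -0.13 (SE 0.47), 0.071 (SE 0.59) and -0.023 (SE 0.62), and -0.69, -0.62 and -0.75 without control IgG 2. Without control IgG 1 they were 0.87, 1.55 and 1.65 (edgeR adjusted p = 0.149, 0.0205 and 0.00980), so in that fit Snord32a and Snord35a were called higher, as was Snord85. Rpl13a itself was at 10.9, 13.0, 12.5 and 14.4 CPM, highest in anti-CD93 2.

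The other 3 short box C/D members with the highest levels, Snord55, Snord87 and Snord104, went the same way. Snord55 was at 34.1 and 13.1 CPM in the controls and 23.5 and 16.1 CPM with anti-CD93. Snord87, in the noncoding host Snhg6, was at 26.0 and 13.2 against 21.2 and 13.7 CPM. Snord104, which lies between annotated genes, was at 24.4 and 13.6 against 19.2 and 12.2 CPM. The anti-CD93 values of Snord34, Snord55 and Snord87 fell inside the range of the controls, and 1 value of Snord104 fell below it. The fold changes of Snord55, Snord87 and Snord104 were -0.26, -0.17 and -0.28 on the log2 scale, with SE of 0.42, 0.36 and 0.34. Without control IgG 2 they were -0.78, -0.57 and -0.63 (edgeR adjusted p = 0.405, 0.645 and 0.631), and without control IgG 1 they turned to 0.61, 0.41 and 0.22 (edgeR adjusted p = 0.117, 0.321 and 0.619). The controls stood further apart than the groups did.

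Over the 26 tested box C/D members under 120 bases the median log2 fold change was -0.32 with all libraries, -0.74 without control IgG 2, when 25 lay lower, and 0.49 without control IgG 1, when 16 lay higher. Which control library stood for the group therefore set the direction of the median, though not of every member, as 10 lay lower without control IgG 1. Among the 26, Snord61, Snord11 and Snord85 differed most between the controls: Snord61 had 28 and 2 reads, Snord11 had 30 and 3, and Snord85 had 54 and 6. Their log2 fold changes were -0.56, -0.47 and -0.36 without control IgG 2 and 2.80, 2.42 and 2.40 without control IgG 1 (edgeR adjusted p = 0.0618, 0.0513 and 0.0197). Snord11 lies in an intron of Nop58, which encodes a core protein of the same particles. Snord13, the U13 RNA, which guides acetylation of small-subunit ribosomal RNA, lies between genes and was at 6.04 and 4.39 CPM against 3.50 and 3.56 CPM, without overlap (log2 fold change -0.57, SE 0.38). Snord73a alone lay higher in both anti-CD93 libraries, at 0.734 and 0.856 against 1.36 and 1.89 CPM (8 to 26 reads; log2 fold change 1.02, SE 0.64). Snord11, Snord13, Snord32a, Snord35a, Snord61, Snord37, Snord8, Snord58b, Snord92, Snord73a, Snord85, Snord118 and Snora57 were picked after their values were seen.

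**Figure D2:**
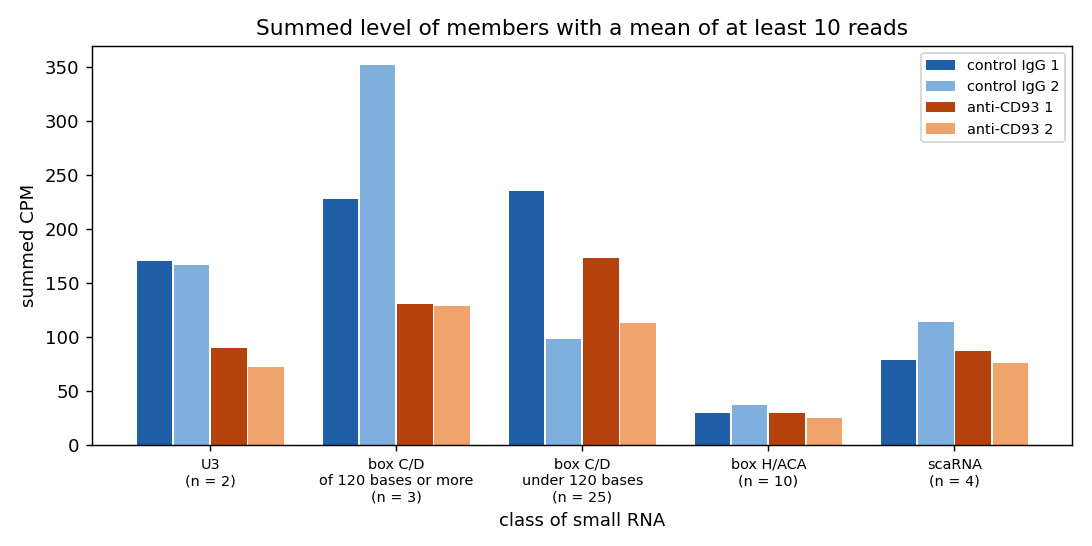
Summed CPM of the members with a mean of at least 10 reads, 1 bar per library, by class and length. U3 and long box C/D sums are lower in both anti-CD93 libraries, whereas the short box C/D sum runs from 235 CPM in control IgG 1 to 98.3 CPM in control IgG 2.

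**Figure D3:**
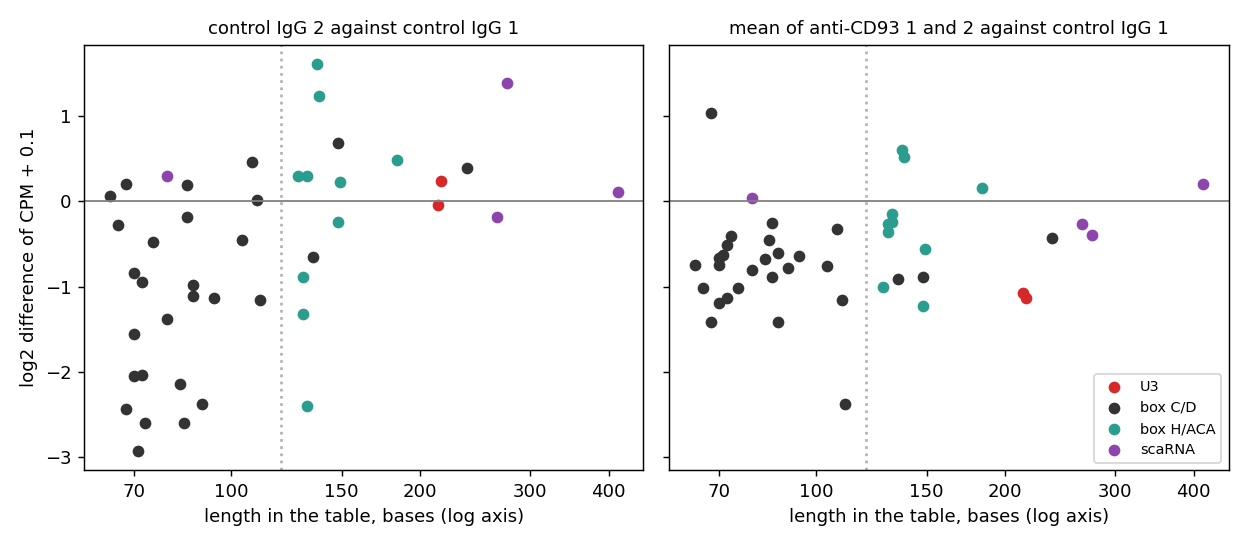
Difference in log2(CPM + 0.1) from control IgG 1 against member length in bases (log axis) for the 44 members with a mean of at least 10 reads, for control IgG 2 (left) and the mean of the anti-CD93 libraries (right). In the left panel most points left of the dotted line at 120 bases lie below 0, and longer members scatter around 0.

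Most short members lay lower in control IgG 2 than in control IgG 1, but short genes of other types did not all share this. On log2(CPM + 0.1), control IgG 2 minus replicate 1 had a median of -1.11 over the 25 short box C/D members, 0.38 over the 3 long ones, 0.26 over 10 box H/ACA members and 0.20 over 4 scaRNAs. These medians give direction and not the width of the gap, since box H/ACA members ran from -2.39 to 1.61. Over the 44 members Spearman's rho between table length and this difference was 0.54, a description of members that share 2 libraries. Other genes under 120 bases with such reads gave -0.63 (89 genes), and those over 500 bases gave 0.021 (15932 genes). The 67 short ones of other types than snoRNA gave -0.51, and the 25 short microRNA genes only -0.12, with control IgG 2 lowest in 40% against 38.1% of all genes. Of the 89, the 22 that GENCODE types as snoRNA or scaRNA under other names had a median of -1.17, and control IgG 2 was lowest in 16. In these 22 both anti-CD93 libraries lay below control IgG 1 in 15 (68.2%), against 22 of 67 (32.8%) for short genes of other types. Against both controls, however, both anti-CD93 libraries lay below in 2 of the 22 and above in 4. For the 67 the counts were 8 and 16, beside 19.6% and 20.3% of all genes. The part of RNA length or quality in these differences was not tested.

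In the 2 controls the tested hosts of intronic members lay closer together than the members did. For 33 intronic members with a tested host (27 hosts, 8 of them ribosomal protein genes), the median of the hosts' own control IgG 2 minus replicate 1 was 0.097, ranging from -0.75 to 0.90, against -0.98 for the members. The classes differed: box C/D members had -1.13 (hosts 0.11) and the 7 box H/ACA members 0.22 (hosts 0.051). A separate list of noncoding snoRNA host transcripts, 14 of them tested, had a median of -0.45, so not all host transcripts lay near 0. Between antibody and control the hosts had a median log2 fold change of -0.017 (15 lower, 12 higher) and the members -0.26. The difference between member and host was not tested. Counts at intronic members cannot tell the member from unspliced host RNA, and the share of such reads was not tested.

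**Figure D4:**
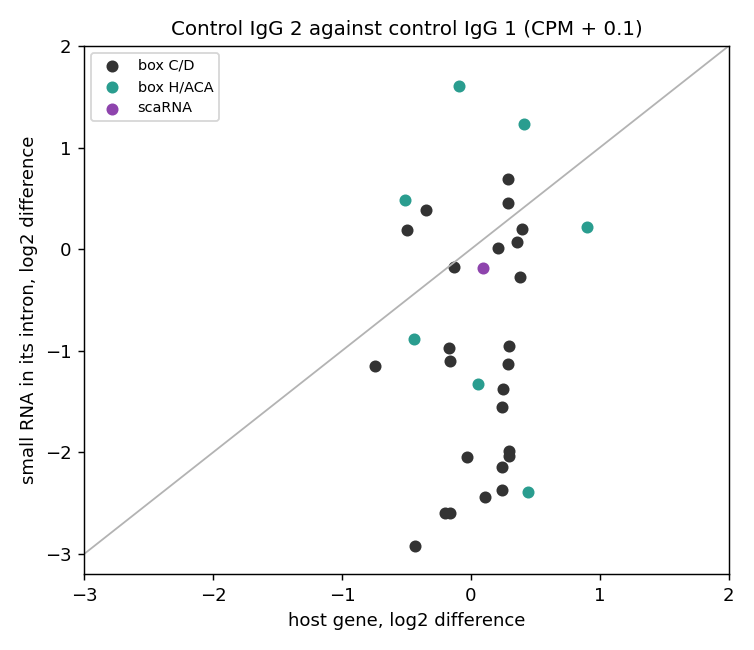
Control IgG 2 against replicate 1, as a difference in log2(CPM + 0.1), for intronic members (vertical axis) and their host genes (horizontal axis), 1 point per member, with the line of equality. Hosts stay between -0.75 and 0.90 while many box C/D members lie below -1.11, the median of the short ones.

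Box H/ACA members were low, and 0 of the 10 tested passed the test. Their sum was 35.6 ± 4.71 CPM in the controls and 29.0 ± 3.19 CPM after anti-CD93. Snora23, in an intron of the importin gene Ipo7, was at 6.69 and 9.42 CPM in the controls and 7.51 and 7.34 CPM with anti-CD93, inside the control range. Snora21, in an intron of Rpl23, was at 3.59 and 11.1 CPM against 6.55 and 4.58 CPM, so the controls again were the ends of the range. Its log2 fold change of -0.38 (SE 0.52) became 0.64 without control IgG 2 (edgeR adjusted p = 0.723) and -0.99 without control IgG 1 (edgeR adjusted p = 0.0377). Rpl23 was at 316.8 ± 14.4 against 296.5 ± 4.12 CPM.

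Snora31, in an intron of Tpt1, went the other way, at 4.98 and 1.93 CPM in the controls and 3.79 and 4.50 CPM under the antibody (log2 fold change 0.24, and -0.27 without control IgG 2). Snora17, between genes, was at 2.94 and 3.64 against 3.56 and 1.96 CPM. Only 3 box H/ACA members had no overlap between the groups, all lower with anti-CD93 (30% of 10 tested, against 19.7% of all genes). Snora78, in an intron of Snhg9, was at 3.92 and 4.82 against 1.92 and 1.89 CPM (48, 45, 34 and 26 reads; log2 fold change -1.19, SE 0.42; edgeR adjusted p = 0.812). Leaving out control IgG 2 gave -1.04. It lies opposite Rps2, and the counting did not use strand, so reads of both cannot be told apart. Snora62, in the laminin receptor gene Rpsa, was at 2.28 and 2.68 against 1.58 and 1.45 CPM, and Snora57 at 2.04 and 1.71 against 1.13 and 0.581 CPM. Rpsa, at 925.7 ± 396 against 626.8 ± 53.6 CPM, had a log2 fold change of -0.56, and -0.044 without control IgG 2.

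The scaRNAs were led by Scarna2, which did not separate the groups. Scarna2 (chromosome 3, 108554338 to 108554751, between genes), a guide for the spliceosomal U2 RNA and the longest member at 414 bases, was at 54.7 and 59.1 CPM in the controls and 68.8 and 57.1 CPM under the antibody (log2 fold change 0.15, SE 0.19). Scarna13, also called U93 and hosted by Snhg10, was at 19.5 and 51.2 CPM in the controls and 14.2 and 15.5 CPM with anti-CD93. Both anti-CD93 values were below both controls, but control IgG 2 was well above the rest. The log2 fold change was -1.24 (SE 0.41; edgeR adjusted p = 0.812). Leaving out control IgG 2 gave -0.39 (edgeR adjusted p = 0.670). Without control IgG 1 it was -1.79 (edgeR adjusted p = 2.59e-04). Part of Scarna13, 23.6% of its length, is covered by the exon of Mir3069, where reads could not be assigned. Its host Snhg10 had only 5, 6, 12 and 0 reads.

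Scarna6, in an intron of the autophagy gene Atg16l1, was at 2.94 and 2.57 against 2.43 and 2.40 CPM (log2 fold change -0.19, SE 0.44), and Scarna17 at 1.47 and 1.82 against 1.64 and 1.38 CPM (-0.11, SE 0.56). Both differences were smaller than their SE, although the groups of Scarna6 did not overlap. Scarna9, in Cep295, and Scarna8, in Haus6, had 0 to 8 reads per library and were not tested. The sum of the class was 97.5 ± 25.0 CPM in the controls and 82.6 ± 7.72 CPM after anti-CD93.

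**Figure D5:**
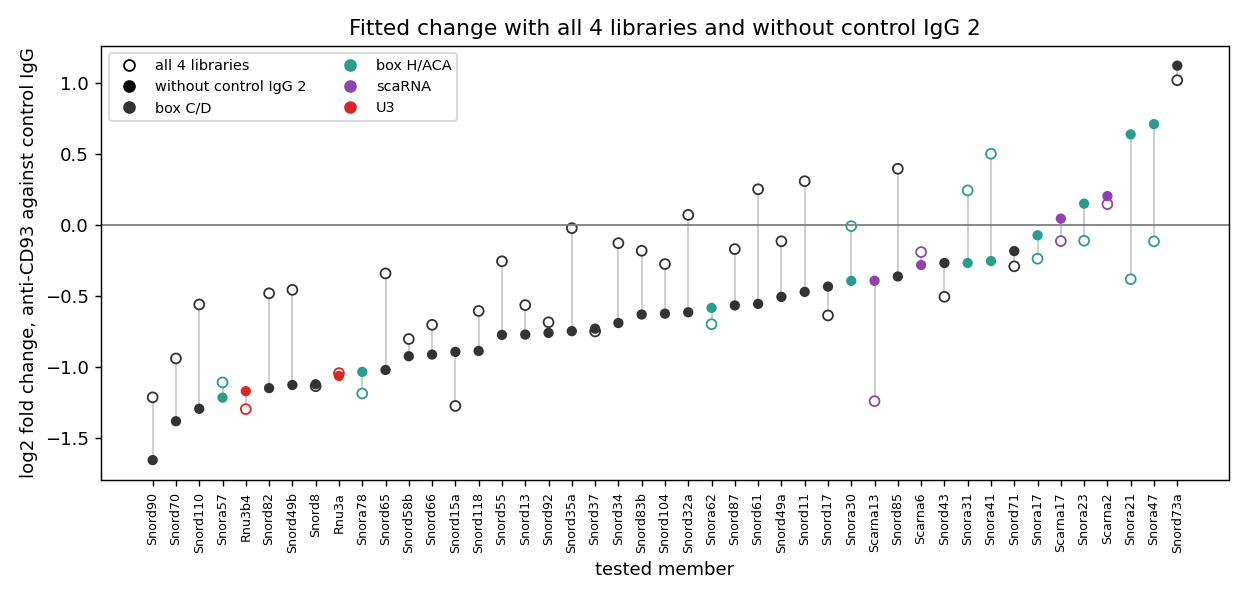
Fitted log2 fold change (anti-CD93 against control IgG) of the 45 tested members with all 4 libraries (open) and without control IgG 2 (filled), ordered by the latter and coloured by class. Rnu3a moves little, from -1.05 to -1.07, and Scarna13 from -1.24 to -0.39.

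Genes for the proteins of these particles are given by value, since the test called 0% of all genes and a count of 0 in a list is therefore no result about it. Of the 4 box C/D core protein genes 0 passed in either direction. Nop58 was at 43.2 and 38.5 CPM in the controls and 58.0 and 49.8 CPM under the antibody (log2 fold change 0.40, SE 0.19), and Nop56 at 63.5 and 68.5 against 56.8 and 61.0 CPM (-0.16, SE 0.18). Fbl, which encodes fibrillarin, had -0.11 and Snu13, which encodes the first protein to bind the RNA, 0.13, or -0.051 and 0.44 without control IgG 2. Of 6 box H/ACA core and assembly genes 0 passed, with a median log2 fold change of 0.14. Shq1, an assembly factor of dyskerin, had 0.49 (SE 0.33) and Dkc1, which encodes dyskerin, 0.35 (SE 0.28), or 0.054 without control IgG 2.

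The U3 particle and small-subunit processome list had 0 of 32 genes past the test, with 21 lower and 11 higher and a median of -0.055. Rrp9, the gene of a protein specific to the U3 particle, was at 16.7 and 22.1 CPM in the controls and 12.6 and 11.99 CPM with anti-CD93, without overlap (log2 fold change -0.65, SE 0.25; edgeR adjusted p = 0.812). Leaving out control IgG 2 gave -0.44. Tbl3, a processome component, was at 17.5 and 25.5 against 14.97 and 13.7 CPM (-0.58, SE 0.26, and -0.29 without control IgG 2). Of 14 genes of snoRNP assembly and end processing 0 passed. Exosc10, a nuclease of the nuclear exosome that trims snoRNA ends, was at 74.2 and 100.3 against 65.0 and 58.2 CPM (-0.50, SE 0.21), and Ruvbl2, an assembly ATPase, at 32.4 and 50.4 against 30.8 and 29.0 CPM (-0.47, SE 0.25). Without control IgG 2 they were -0.27 and -0.11.

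In the Cajal body and transport list 0 of 8 genes passed. Wrap53, whose protein carries scaRNAs to Cajal bodies, was at 7.26 and 6.96 against 4.80 and 5.09 CPM (-0.52, SE 0.32), and Nolc1, a nucleolar and coiled-body phosphoprotein, had -0.35 (SE 0.23), or -0.044 without control IgG 2. Noncoding snoRNA host transcripts had 0 of 14 tested genes past the test and a median of 0.072, with Snhg15 at -0.48 (SE 0.34) and Snhg8 at 0.51 (SE 0.37), or -0.21 and 0.087 without control IgG 2. RNA polymerase I and nucleolar genes had 0 of 14 and a median of 0.0047. Of these, Polr1c, a shared subunit of polymerases I and III, had 0.46 (SE 0.23), and Tcof1, the nucleolar protein treacle, -0.41 (SE 0.24), or -0.071 without control IgG 2.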

How the data were processed

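The deposited values are raw read counts per gene name, made by the authors, per the file headers, with featureCounts 2.0.1 and GENCODE vM25 (GRCm38). The recorded command has no option for paired ends, strand, several overlapping genes or several mapping places, so each mate counted as a read and reads in exons of 2 gene names were dropped. The submitters' processing notes name STAR 2.7.5b and DESeq2 1.28.1. Another file, called normalized, was equal to the first (0 of 221468 cells differed).

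Genes were kept by filterByExpr (minimum count 10; 16945 genes), scaled by TMM and compared with edgeR 4.0.16 (quasi-likelihood, robust, group only, two-sided, Benjamini-Hochberg over all genes) in R 4.3.3. limma 3.58.1 and DESeq2 1.42.0 were alternatives, with other scalings, filters, halved counts, a replicate block and each library left out. The fit was tested on simulated data with 200 changed genes. SE is the fold change over the root of F. Hosts and exon overlap come from the deposited coordinates. Where lists are summed, all found genes count.

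The members and lists were chosen with earlier results of these data known. Named were all U3 genes, the 6 members of each other class with the highest mean CPM, up to 4 per direction with the smallest p, at least 5 CPM on average and groups apart, Snord15a and Rnu3a, hosts of intronic members (1 host is not reported here), and the 2 genes of each list with the smallest p. Genes named Gm or Rik were not named. Others are said to be picked afterwards. The assigned reads, 9364294 to 17813993 per library, and 2 libraries per group limit the precision.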

Additional observations from a re-analysis of the deposited data

How the results depend on the processing

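The number of members past an adjusted p of 0.05 was 0 under all other scalings, both other count filters, limma-voom, halved counts, no robust dispersion and a threshold of 0.1. It was 3 with no count filter, 2 by DESeq2 and 0 to 10 with 1 library left out, the 10 without control IgG 1 (7 lower, 3 higher). At an unadjusted p under 0.05 the count of 6 ran from 3 to 15 with 1 library left out. The U3 median was -1.00 with no count filter, which tests 3 more U3 genes, and the scaRNA median was -0.54 with a minimum count of 50, which leaves fewer scaRNAs. Over the same 29 members the box C/D median of -0.46 was -0.26 by limma-voom and -0.25 with the replicate block. Over all 42 with reads it was -0.23 with no count filter and -0.26 by DESeq2. A minimum count of 50 gave -0.27 and halved counts -0.28, under filters that keep fewer genes. With 1 library left out the box C/D median ran from -0.75 to 0.41 and the box H/ACA median from -0.70 to -0.078. The deviations of same-numbered libraries from their group means had r = -0.016 across genes. Control IgG 2 stood apart, so this value cannot decide whether the libraries were paired. Of 25 short box C/D members, 18 were lower in the second library of both groups. With the replicate block 2 members passed, and Snord34 turned to 0.0052.

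With 1 library left out, which leaves a lone library assumed to vary like the others, 25 of the 45 tested members turned sign, 9 of them among those named by rule. The range was -0.69 to 0.87 for Snord34, -0.78 to 0.61 for Snord55, -0.57 to 0.41 for Snord87 and -0.64 to 0.22 for Snord104. It was -0.34 to 0.15 for Snora23, -0.99 to 0.64 for Snora21, -0.27 to 1.10 for Snora31, -0.73 to 0.12 for Snora17 and -0.26 to 0.044 for Scarna17. Among members picked afterwards it was -0.62 to 1.55 for Snord32a, -0.75 to 1.65 for Snord35a, -0.36 to 2.40 for Snord85, -0.47 to 2.42 for Snord11 and -0.56 to 2.80 for Snord61. The cause was not tested. Depth limits members with few reads: 27 members with 1 to 38 reads over all libraries were not tested.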

Other observations

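Other short structured RNAs, which work outside the nucleolus or in other particles, also gave no call: 0 of the 9 tested passed (5 lower, 4 higher, median log2 fold change -0.13). Vaultrc5, the RNA of vault particles (143 bases), had 9.54 and 13.3 CPM in the controls and 7.12 and 7.05 CPM under the antibody (log2 fold change -0.68, SE 0.30; edgeR adjusted p = 0.812), a value of -0.43 without control IgG 2. Rn7sk, the RNA that holds the elongation factor P-TEFb inactive (331 bases), was at 1400.0 and 2933 against 1299 and 1444 CPM, so control IgG 2 alone stood high, and its value of -0.66 became -0.031 without that library. Rmrp, which also takes part in ribosomal RNA processing, was at 158 and 224 against 152 and 132 CPM (-0.43, and -0.15 without control IgG 2). The Y RNA Rny1 (112 bases) was at 23.9 and 3.75 against 13.8 and 11.7 CPM (-0.13, and -0.90 without control IgG 2). Control IgG 1 was highest and control IgG 2 lowest, the order of the summed short box C/D level. Rmrp and Rny1 were picked after their values were seen.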
